A study of Rattus norvegicus with 5 samples.

Results

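Growth brakes are genes whose products hold back cell growth or the genes that drive it. The set examined here had 10 symbols, chosen by name: Ddit4 and Ddit4l, the 3 sestrins Sesn1, Sesn2 and Sesn3, the MYC antagonist Mxi1 with Myc and Max, and the repressors Bhlhe40 and Bhlhe41. Of these, 8 were matched to a row by symbol among the 17048 rows of each table, each to a single row. Ddit4l and Bhlhe41 were not matched and were not analysed here. RNA abundance was measured by sequencing in vascular smooth muscle cells of the rat, which form the muscle layer of blood vessels, cultured on coated plastic in DMEM/F12. The 5 libraries came from 5 conditions. A control (CON) was set beside cells held in hypoxia for 24 h, either with no compound or pretreated with In-Cl at 0.1 µM, DPN at 0.1 µM or E2 at 10 nM. The labels give no oxygen level for either the control or hypoxia, and neither the strain nor the number of cultures behind a library. E2 is estradiol, DPN is an agonist with a preference for estrogen receptor beta, and In-Cl is the Indazole-Cl of the series title. Because each condition was sequenced once, differences could not be set against replicate spread, p-values are left out, and each statement is about these libraries.

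The kinase complex mTORC1 promotes protein synthesis and cell growth when nutrients and oxygen suffice. Ddit4, also called REDD1, is induced by low oxygen and other stresses and restrains mTORC1 through the TSC complex, and sestrins restrain it by acting on the GATOR complexes and AMPK. MYC binds DNA together with MAX and activates growth genes, while MXI1 pairs with MAX in its place and recruits repressors. BHLHE40 is a repressor of the clock and of other genes and is known as a target of hypoxia-inducible factor, as are Ddit4 and Mxi1.

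The libraries held about 20173100 to 24366300 reads. The deposited values read as log2(adjusted read count + 1), a form inferred from the values, and the adjustment is not described in the labels. The interval given in brackets with a difference is the 95% counting interval, computed from approximate reads. It covers counting error only. Rows with any value above 0 numbered 13397 (detected rows), and the 6699 in the upper 50% of these by mean linear value are called abundant. All 13397 were above 0 in hypoxia and after DPN and E2, against 12369 in the control and 12414 after In-Cl. A row with 0 reads can hold a small positive value, such as 0.02 for Mlxipl after DPN. A value above 0 therefore does not mean that a gene was read in that library. Of the 8 genes, 7 were abundant and Sesn1 was not. Smooth muscle markers were all 10 detected and summed to between 335087 and 433337 reads per library. The endothelial markers Cdh5 and Kdr, the leukocyte markers Cd3e and Itgam and the adipocyte marker Adipoq were at 0 reads throughout, and the leukocyte list summed to 19 to 29 reads. Of the 6 endothelial markers the other 4 were detected, and that list summed to 308 reads in the control and 351 to 450 in the hypoxic libraries. The epithelial list, carried by Krt8, summed to 263 reads in the control and 442 to 549 in the hypoxic libraries. The fibroblast list, carried by Col1a1, which smooth muscle cells also express, summed to 240949 to 289652 reads. Whether cells other than smooth muscle contributed to the values below was not tested, and in bulk RNA a change in the share of cells and a change in RNA per cell cannot be told apart.

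Hypoxia against control asks what low oxygen does to these brakes. Ddit4, Mxi1 and Bhlhe40 stood far above the control, while the sestrins, Myc and Max lay close to it. At least 2-fold higher were 3 of the 8, and 0 were lower by as much. Among all abundant rows 1.88% were at least 2-fold higher and 0.224% lower, and among all detected rows 8.85% and 3.25%. The detected shares, here and below, take in rows of about 1 read and are uneven between directions. For Mlxipl, 1 read in hypoxia against 0 in the control gave 1.03, past 2-fold. A single control read, as for Mycl, had a level of 0.87, which falls short of 2-fold against 0. The median difference of the 8 genes was 0.21, against -0.05 over the abundant rows, and with every library scaled to the same sum these medians became 0.07 and -0.19.

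Ddit4, the brake on mTORC1, had a log2 level of 8.55 in the control, against 11.75 in hypoxia without a compound, 11.62 after In-Cl, 11.63 after DPN and 11.68 after E2. The control was low and the 4 hypoxic libraries lay together within 0.14. Hypoxia was 9.21-fold above the control (log2 3.20 [3.06 to 3.35]), on 3343 reads against 441. This was the 18th highest difference of the 6699 abundant rows.

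Mxi1, the antagonist of MYC, had a level of 7.98 in the control, against 10.57 in hypoxia without a compound, 10.45 after In-Cl, 10.52 after DPN and 10.41 after E2. It was 6.06-fold higher in hypoxia (log2 2.60 [2.42 to 2.79]; 1477 reads against 296), which placed it 30th. Bhlhe40, the clock-linked repressor, had a level of 7.21 in the control, against 9.90 in hypoxia without a compound, 9.70 after In-Cl, 9.74 after DPN and 9.98 after E2. It was 6.45-fold higher (log2 2.69 [2.46 to 2.94]; 926 reads against 174) and placed 27th. For both genes the control again lay far below all 4 hypoxic libraries, as the plot of levels by library shows.

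**Figure D1:**
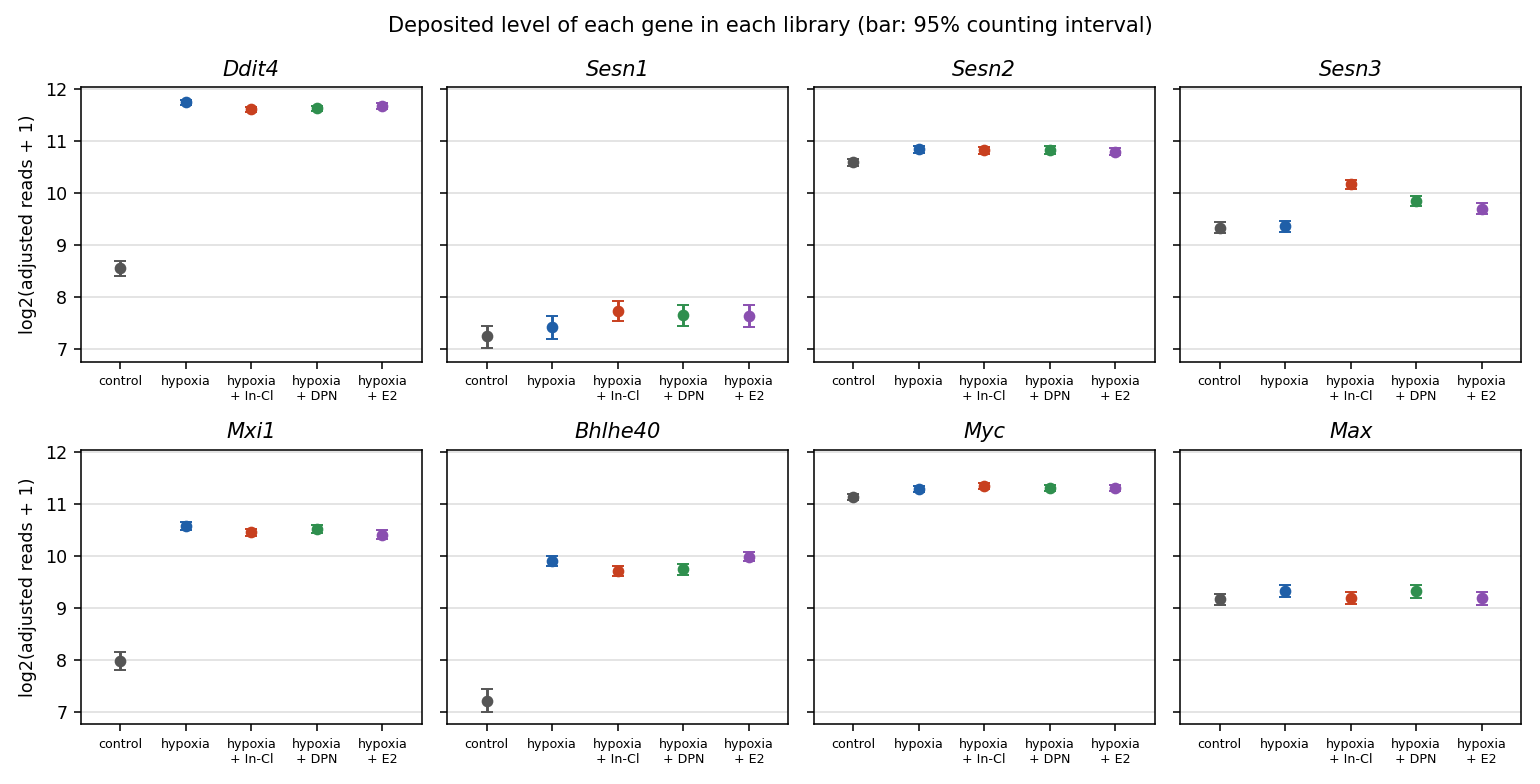
Deposited level, log2(adjusted read count + 1), of each of the 8 genes in the 5 libraries; points are single libraries and bars are 95% counting intervals. The control lies far below the 4 hypoxic libraries for Ddit4, Mxi1 and Bhlhe40, and Sesn3 is higher in the 3 compound libraries than in hypoxia; heights are not comparable between genes, since the values are not per length.

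The 3 genes past 2-fold are shown here with the 250 bases before their annotated start, because hypoxia-inducible factor is known to bind a short core that reads ACGTG or GCGTG. The windows are RefSeq sequences of build GRCr8, which is not the build rn6 named for the deposited values, and they were matched for 9 of the 10 symbols, all but Myc. Capitals mark every ACGTG or GCGTG on either strand, so that the reverse strand reads CACGT or CACGC.
Ddit4 (chr20:28437038-28437287, minus strand): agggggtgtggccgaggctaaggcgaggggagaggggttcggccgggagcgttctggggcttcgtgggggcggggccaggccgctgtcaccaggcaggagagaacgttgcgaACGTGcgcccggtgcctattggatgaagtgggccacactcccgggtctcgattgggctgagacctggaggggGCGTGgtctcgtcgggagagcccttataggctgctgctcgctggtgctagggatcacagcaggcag
Mxi1 (chr1:262348392-262348641, plus strand): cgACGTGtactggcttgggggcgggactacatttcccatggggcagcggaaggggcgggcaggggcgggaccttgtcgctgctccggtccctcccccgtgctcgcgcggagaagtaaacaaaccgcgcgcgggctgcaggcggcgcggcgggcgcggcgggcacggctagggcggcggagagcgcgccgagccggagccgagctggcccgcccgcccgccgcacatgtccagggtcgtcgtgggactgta
Bhlhe40 (chr4:143174200-143174449, plus strand): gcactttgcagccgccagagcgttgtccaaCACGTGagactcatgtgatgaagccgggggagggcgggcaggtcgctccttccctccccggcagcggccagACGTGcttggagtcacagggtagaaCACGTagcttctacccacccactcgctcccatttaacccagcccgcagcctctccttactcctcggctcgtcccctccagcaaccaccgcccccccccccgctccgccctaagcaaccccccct

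The Ddit4 window held ACGTG 138 bases and GCGTG 66 bases before the start. In the Mxi1 window ACGTG lay 248 bases before it, at the far edge of the window. The Bhlhe40 window held ACGTG at 3 separate places, 220, 149 and 124 bases before the start, and the first of these is the palindrome CACGTG, an E-box, which reads the same on both strands and contains ACGTG on each. Of all 33469 windows of this length, 16.6% held ACGTG, 25.9% held GCGTG, 5.59% held CACGTG and 0.26% held ACGTG at 3 or more separate places. Among the other members, Max and Bhlhe41 each held ACGTG at 1 place, as part of CACGTG, and GCGTG too. Sesn1, Sesn3 and Ddit4l held GCGTG only, and in the Sesn2 window neither was found. A match is a string of letters and not a measured binding site.

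The sestrins did not share the large difference. Sesn2, the stress-induced leucine sensor, had a level of 10.59 in the control, against 10.85 in hypoxia without a compound, 10.83 after In-Cl, 10.83 after DPN and 10.80 after E2. Hypoxia was 1.19-fold above the control (log2 0.25 [0.16 to 0.35]), and 16.4% of abundant rows were at least as high. Sesn1, a sestrin known as a p53 target, had 164 reads in hypoxia and 177 in the control, and its difference of 0.17 [-0.14 to 0.49] was not detectable at this depth. For Sesn3, a sestrin known as a FOXO target, the difference was 0.03 [-0.13 to 0.18].

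On the MYC side, the antagonist and the driver parted. Myc had a level of 11.13 in the control, against 11.30 in hypoxia without a compound, 11.34 after In-Cl, 11.31 after DPN and 11.31 after E2. Hypoxia was 1.12-fold above the control (log2 0.17 [0.09 to 0.25]). Max, the shared partner, had a level of 9.17 in the control, against 9.32 in hypoxia without a compound, 9.18 after In-Cl, 9.31 after DPN and 9.19 after E2, and its difference in hypoxia, 0.15, had an interval that reached 0 [-0.01 to 0.31]. In the library in which Mxi1 was 6.06-fold above the control, Myc and Max were each at most 1.12-fold above it.

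By their counting intervals 5 of the 8 genes lay above the control in hypoxia (Ddit4, Mxi1, Bhlhe40, Sesn2 and Myc) and 0 below, where 28.7% of abundant rows lay above and 39% below. The same-sum scaling ended the call of Myc, at 0.02 [-0.06 to 0.10], and left 4 of the 8 above, where 16% of abundant rows lay above and 59.1% below. Under it Sesn2 was at 0.11 [0.02 to 0.21], Max at 0.01, Sesn3 at -0.12 and Ddit4 at 3.06.

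The 3 compound libraries also put Ddit4, Mxi1 and Bhlhe40, and no other member, at least 2-fold above the same control library. Of abundant rows 2.27% were that much higher after In-Cl, 1.82% after DPN and 1.88% after E2, and 0.537%, 0.269% and 0.313% lower. Ddit4 was at 3.07 after In-Cl, 3.08 after DPN and 3.13 after E2. Mxi1 was at 2.48, 2.55 and 2.43 in the same order, and Bhlhe40 at 2.49, 2.52 and 2.77. The control was the lowest of the 5 libraries for all 8 genes, which held for 30.6% of abundant rows, and 41.8% had the control highest. With the same sum in each library the control was lowest for 6 of the 8, all but Sesn3 and Max, as for 19.3% of abundant rows, and 54.6% had it highest. For Max this order rests on differences whose intervals include 0 in all 4 libraries. By their intervals 7 of the 8 genes, all but Max, lay above the control with each compound, where 32.3%, 29.4% and 30.2% of abundant rows did with In-Cl, DPN and E2. The same-sum scaling ended 1 of these calls, that of Myc with DPN. Sesn1 and Sesn3, whose intervals in hypoxia alone included 0, were among them: Sesn1 by 0.50, 0.41 and 0.40 and Sesn3 by 0.83, 0.52 and 0.37 with In-Cl, DPN and E2.

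**Figure D2:**
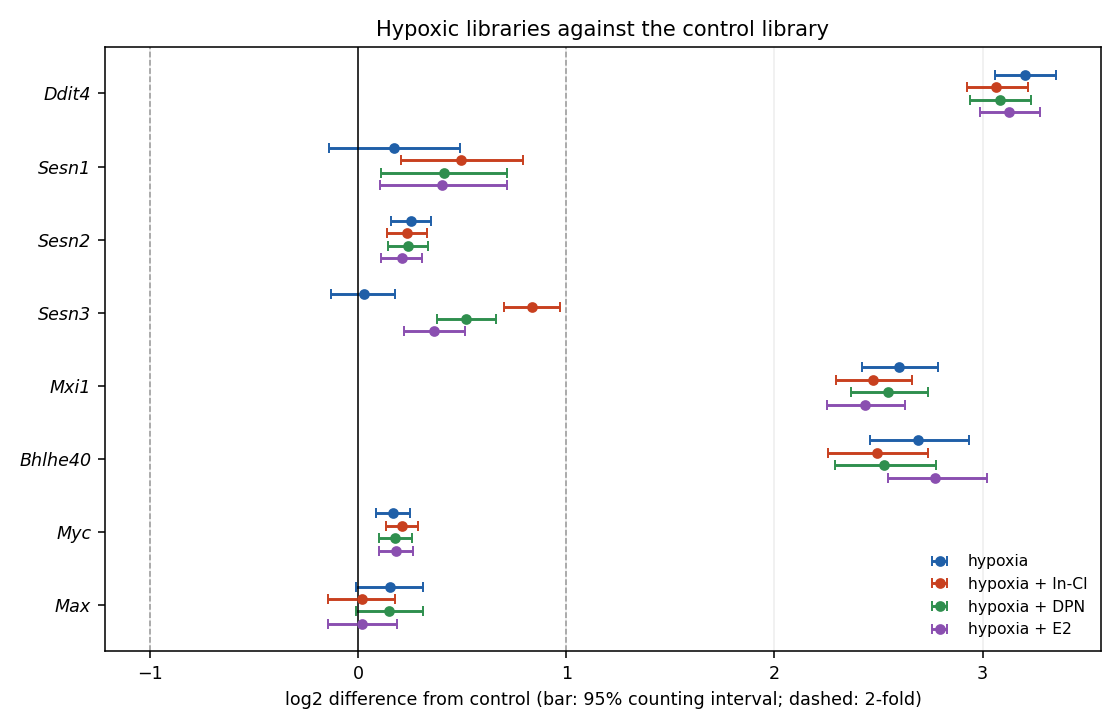
Log2 difference of each hypoxic library from the control for the 8 genes, with 95% counting intervals; dashed lines mark 2-fold. Ddit4, Mxi1 and Bhlhe40 lie between 2.43 and 3.20 in all 4 libraries, and the other 5 genes lie below 2-fold in each.

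The rows most like these 3 genes were sought over the 5 libraries. Likeness was the root mean square difference of log2 values after each row was centred on its own mean over 5 libraries, so a small value means a like course. For Ddit4 the nearest rows were Pgk1, a glycolytic kinase (0.062), Slc2a1, the glucose transporter GLUT1 (0.063), and P4ha2, a collagen prolyl hydroxylase (0.069). For Mxi1 they were Pfkl, a phosphofructokinase (0.042), Gpi, glucose-6-phosphate isomerase (0.057), and Zfp395 (0.077). For Bhlhe40 they were Tmem45a (0.054), Gpi (0.081) and Tmem106a (0.111). With 5 libraries, of which 1 lies apart, the measure mainly compares the size of the step from the control.

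The rest of the mTORC1 pathway showed no such step. Of 14 measured genes of the TSC and mTORC1 list 0 were at least 2-fold different in hypoxia, a share near that of abundant rows (1.88% higher, 0.224% lower). The median of the list was -0.05. Eif4ebp1, the repressor of translation that mTORC1 inactivates, was highest at 0.75 [0.68 to 0.83]. Rptor, the scaffold of mTORC1, came next at 0.14 [-0.02 to 0.30]. Eif4ebp2, a relative of Eif4ebp1, was lowest at -0.40 [-0.56 to -0.24], and the S6 kinase gene Rps6kb2 was at -0.33 [-0.52 to -0.14]. Tsc2, the partner of Tsc1 through which Ddit4 acts, was at -0.10, with an interval from -0.20 to just below 0, and the kinase Mtor at -0.25 [-0.38 to -0.12].

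Of 22 genes of the GATOR, Rag and AMPK list, on which sestrins act, 1 was at least 2-fold higher and 0 were lower, a share near that of all rows (1.88% of abundant and 8.85% of detected rows higher). That gene was Prkab2, an AMPK regulatory subunit, at 1.42 [1.08 to 1.78], on 221 reads against 100. Rragd, a Rag GTPase, was at 0.57 on 22 reads against 18, too few to show a difference [-0.39 to 1.56]. Prkaa2, a catalytic subunit of the same kinase, was lowest at -0.68 [-1.02 to -0.35]. Its reads numbered 221 in the control and 113 in hypoxia, but 214, 173 and 184 after In-Cl, DPN and E2. Sec13, a GATOR subunit that also serves vesicle coats, was at -0.28 [-0.35 to -0.20]. The list's median of 0.08 became -0.06 with libraries scaled to the same sum.

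In the rest of the MYC, MAX and MXD network 0 of 8 counted genes were at least 2-fold different, a share near that of abundant rows (1.88% higher, 0.224% lower). Mycn, a MYC relative, was at 0.76 [0.42 to 1.12] and Sin3a, the corepressor that MXI1 recruits, at 0.54 [0.40 to 0.67]. Mlx, a MAX-like partner, was lowest at -0.76 [-0.89 to -0.64], and Mxd1, a relative of Mxi1, was at -0.14 [-0.42 to 0.13]. The median of 0.08 became -0.07 with the same sum in each library.

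Growth genes bound by MYC lay lower. Of 20 genes 18 lay below the control by their intervals, where 39% of abundant rows did, and 2 lay above. Intervals narrow as reads rise, so these counts depend on depth. Npm1, counted below, was at -0.03 [-0.05 to -0.01] on 30475 reads against 37817. That is above the -0.05 median of the abundant rows. The median of the list was -0.41 and stayed between -0.55 and -0.41 under the scalings tried. Polr1b, a subunit of RNA polymerase I, was lowest at -1.07 [-1.31 to -0.85], the only gene of the list past 2-fold, where 0.224% of abundant and 3.25% of detected rows were that much lower. It was followed by Cad, the enzyme that starts pyrimidine synthesis, at -0.97 [-1.10 to -0.85]. Nop56, a ribosome assembly factor, was at -0.53 and Cdk4, a cell cycle kinase, at -0.43. Tfrc, the transferrin receptor, at 0.43 [0.35 to 0.52], and Dkc1, at 0.16 [0.06 to 0.26], went the other way. Against the same control the list lay below by its intervals in 19 of 20 cases after In-Cl, 17 after DPN and 19 after E2, where 42.3%, 39% and 38.8% of abundant rows did.

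**Figure D3:**
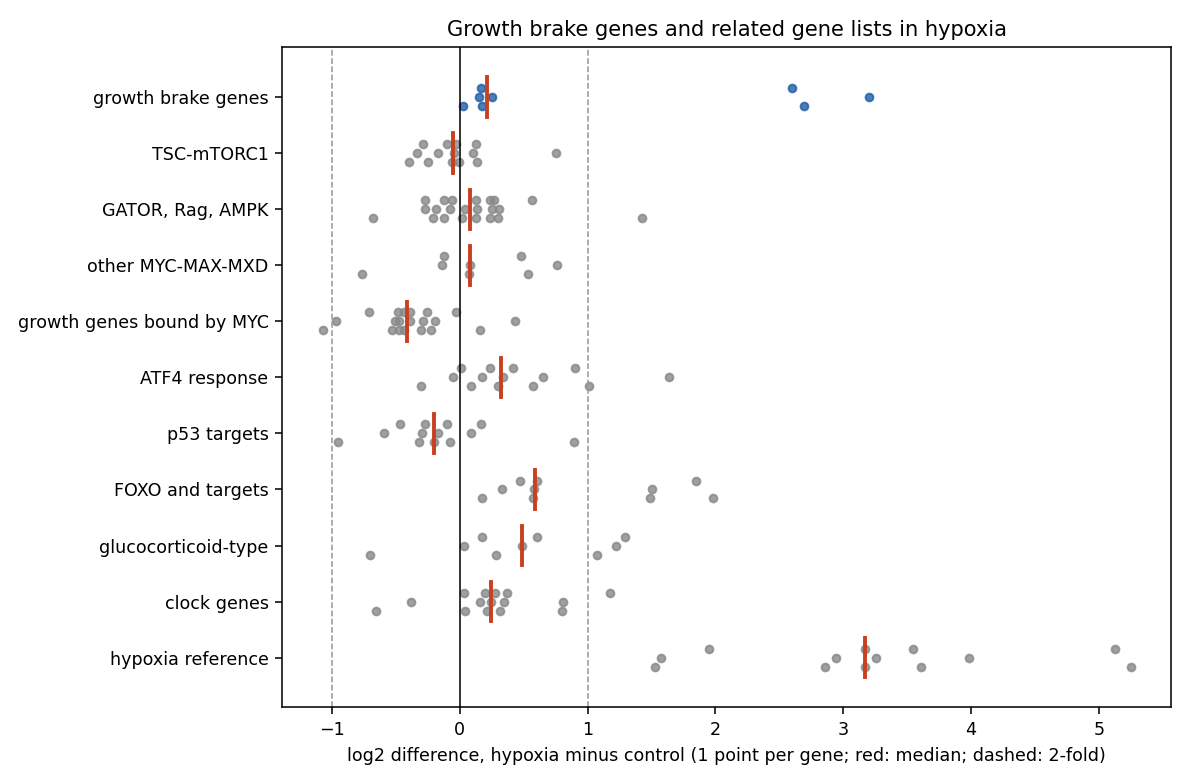
Log2 difference of hypoxia from control for the 8 genes and for 10 related lists, 1 point per gene with a mean of at least 10 reads; red bars are medians and dashed lines mark 2-fold. Growth genes bound by MYC lie mostly below 0 (median -0.41) and the hypoxia reference genes far above (median 3.17), with Ddit4, Mxi1 and Bhlhe40 near the latter.

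Several upstream programmes that can switch on these brakes were also read. All 13 counted hypoxia reference genes passed 2-fold upward, where 1.88% of abundant and 8.85% of detected rows did. They ran from Vegfa (1.53) and Car9 (1.57) to Egln3 (5.12) and Ak4 (5.25, on 470 reads against 14), and their median was 3.17. This list, like the others, was chosen with earlier results of these data known, so its count is not a test. Of 10 FOXO factors and targets, 4 passed 2-fold upward, where 1.88% of abundant and 8.85% of detected rows did. By their intervals 9 lay above the control, where 28.7% of abundant rows did, and the median was 0.59. These 4 were Ccng2, an atypical cyclin (3.95-fold), Fbxo32, a ubiquitin ligase of muscle atrophy (3.60-fold, on 44 reads against 14), Foxo3 itself (2.84-fold) and Pik3ip1, an inhibitor of PI3 kinase (2.80-fold). The lowest were Klf15 at 0.17 [-0.09 to 0.43] and Foxo4 at 0.33 [0.13 to 0.52]. Of 14 genes of the ATF4 and amino acid response, 2 were at least 2-fold higher, against the same 1.88% of abundant and 8.85% of detected rows. These were Trib3, a pseudokinase (3.11-fold), and Vldlr, a lipoprotein receptor (2.02-fold). The median of that list was 0.32, or 0.18 with the same sum in each library, and Phgdh, which starts serine synthesis, was lowest at -0.30 [-0.36 to -0.23], with Psat1, of the same pathway, at -0.06 [-0.14 to 0.02].

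Setting In-Cl against hypoxia asks how pretreated cells differed under low oxygen. Sesn3 was higher. Ddit4, Mxi1 and Bhlhe40 were slightly lower as deposited, but not by their intervals once libraries were scaled to the same sum. No gene of the 8 was past 2-fold (of abundant rows 0.0597% were higher by that much and 0% lower). At 1.5-fold 1 of 8 was higher, Sesn3, where 1.22% of abundant rows were, and 0 were lower, against 0.194%. By their intervals Sesn3 and Sesn1 lay above hypoxia and Ddit4, Mxi1 and Bhlhe40 below, against 25.4% of abundant rows above and 29.2% below.

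Sesn3 had a level of 9.34 in the control, against 9.36 in hypoxia without a compound, 10.17 after In-Cl, 9.86 after DPN and 9.70 after E2. The control and hypoxia were level with each other, and each compound library lay above both. With In-Cl it was 1.75-fold above hypoxia (log2 0.81 [0.67 to 0.95]; 1169 reads against 637), the 12th highest difference of the 6699 abundant rows. Its spread of 0.81 over the 4 hypoxic libraries was matched or passed by 0.478% of abundant rows, whose median spread was 0.21. Sesn1 had a level of 7.24 in the control, against 7.41 in hypoxia without a compound, 7.74 after In-Cl, 7.65 after DPN and 7.64 after E2. With In-Cl it was 1.25-fold above hypoxia (log2 0.32 [0.03 to 0.63]), on 215 reads against 164. Sesn2 lay within 0.05 of its hypoxia level with every compound.

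With In-Cl the difference from hypoxia was -0.20 [-0.34 to -0.06] for Bhlhe40, -0.14 [-0.21 to -0.07] for Ddit4 and -0.12 [-0.23 to -0.02] for Mxi1. With every library scaled to the same sum these became -0.13, -0.07 and -0.05, all 3 intervals included 0, and 0 of the 8 lay below, where 18.3% of abundant rows did. Sesn1 and Sesn3 lay above there too, joined by Myc at 0.11 [0.03 to 0.19], where 36.1% of abundant rows did. The In-Cl differences of Bhlhe40, Ddit4 and Mxi1 were small beside the steps of these 3 genes, 2.60 to 3.20, from the control to hypoxia. Other rows differed in this comparison as well. All 93 abundant ribosomal protein rows lay below hypoxia with In-Cl (median -0.26), 86 with DPN (-0.07) and 91 with E2 (-0.10). In hypoxia against control their median was 0.21, and 4 of the 93 lay below 0. Over all abundant rows the medians against hypoxia were -0.01 with In-Cl and 0 with DPN and with E2. The ribosomal values are as deposited and were not repeated with the same sum in each library. That scaling put the abundant medians at 0.06, 0.04 and 0.05 with In-Cl, DPN and E2. The smooth muscle marker list had a median of -0.42 after In-Cl, -0.32 after DPN and -0.06 after E2. Their part in the differences of Sesn3 and the other genes, in either comparison, was not tested.

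DPN against hypoxia gave a like list of small differences. Sesn3 was 1.41-fold above hypoxia (log2 0.49 [0.35 to 0.64]; 876 reads against 637), the 14th highest of the abundant rows. Bhlhe40 was at -0.16 [-0.30 to -0.03] and Ddit4 at -0.12 [-0.19 to -0.05]. Mxi1 (-0.05 [-0.16 to 0.06]), Myc (0.01 [-0.07 to 0.09]) and Max (interval -0.17 to 0.16) had intervals that included 0. No gene of the 8 passed 1.5-fold, where 0.119% of abundant rows were higher and 0.179% lower, nor 2-fold (0% higher, 0.119% lower). By intervals 1 of the 8 lay above hypoxia and 2 below, against 15.8% and 17.4% of abundant rows. With the same sum in each library Sesn3 still lay above and Ddit4, at -0.08 [-0.15 to -0.01], still below. Bhlhe40, at -0.12 [-0.26 to 0.01], no longer lay below. Of abundant rows 25.8% lay above and 10.1% below under that scaling.

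E2 was given at 10 nM, and its values stand here on their own. Bhlhe40 was at 0.08 [-0.05 to 0.22] against hypoxia. Sesn3 was 1.27-fold above hypoxia (log2 0.34 [0.19 to 0.50]), and 1.9% of abundant rows were at least as high. Mxi1 was at -0.16 [-0.27 to -0.05] and Ddit4 at -0.07, with an interval from -0.15 to just below 0. Neither 1.5-fold (0.119% of abundant rows higher, 0.104% lower) nor 2-fold (0% higher, 0.0299% lower) was passed by any of the 8. By intervals 1 of the 8 lay above hypoxia and 2 below, against 18% and 17.9% of abundant rows. With the same sum in each library the call of Ddit4 was lost, at -0.03 [-0.10 to 0.04], while Sesn3 and Mxi1 kept theirs. Of abundant rows 28.4% lay above and 9.58% below under that scaling. Sesn2, Myc and Max, like Sesn1 (0.23 [-0.08 to 0.55]), had intervals that included 0. The comparisons of In-Cl, DPN and E2 share the hypoxia library. Hypoxia was the lowest of the 4 hypoxic libraries for Sesn1, Sesn3 and Myc, as for 27.5% of abundant rows, and the highest for Ddit4, Sesn2, Mxi1 and Max, as for 28.8%. With the same sum in each library it was lowest for Sesn1, Sesn2, Sesn3 and Myc (40.6%) and highest for Ddit4 and Mxi1 (17%).

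**Figure D4:**
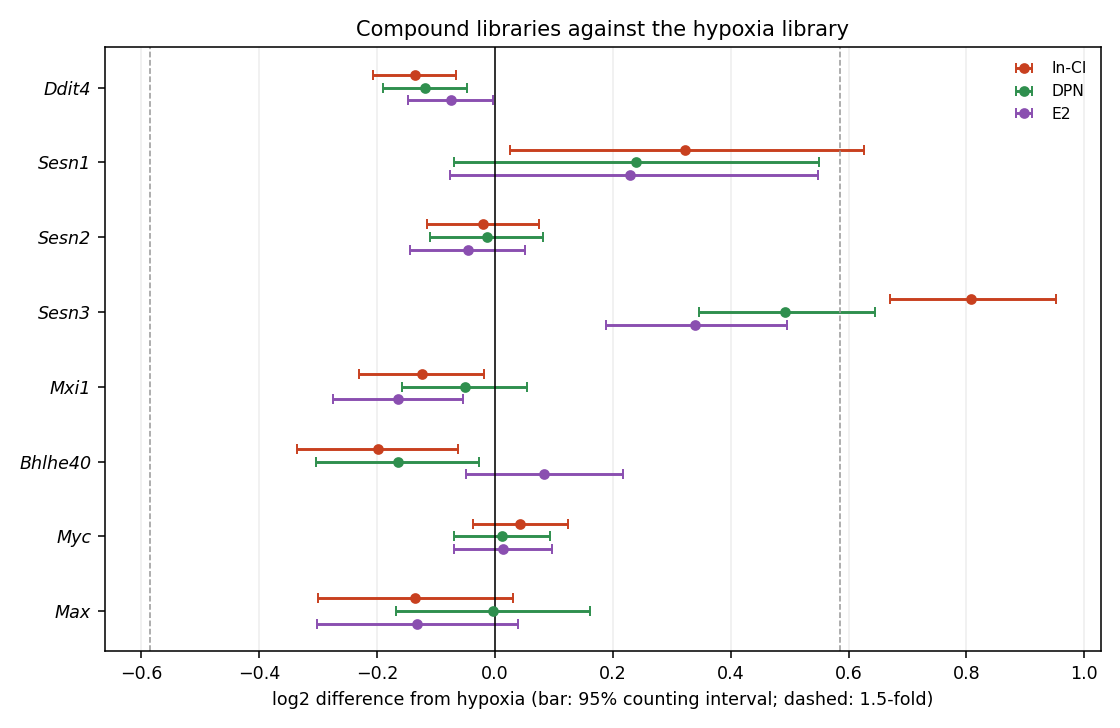
Log2 difference of each compound library from hypoxia for the 8 genes, with 95% counting intervals; dashed lines mark 1.5-fold. Sesn3 lies at 0.81 after In-Cl, 0.49 after DPN and 0.34 after E2, while Sesn2 and Myc lie within 0.05 of 0.

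In-Cl and DPN were given at the same dose, and E2 at another, so 1 pair of compounds was compared at matched dose. Sesn3 was 1.24-fold higher with In-Cl than with DPN (log2 0.31 [0.19 to 0.44]), and 4.52% of abundant rows were at least as high. The intervals of the other 7 genes included 0: Max was at -0.13 [-0.30 to 0.03], Mxi1 at -0.07 [-0.18 to 0.03], Bhlhe40 at -0.03 [-0.18 to 0.11] and Ddit4 at -0.02 [-0.09 to 0.06], and Sesn1 was at 0.08 [-0.20 to 0.37], Sesn2 at -0.01 [-0.10 to 0.09] and Myc at 0.03 [-0.05 to 0.11]. These intervals bound the difference between the 2 libraries and do not show that the compounds act alike. Of the abundant rows, 20.5% lay above 0 by their intervals and 24.6% below in this pair. None of the 8 passed 1.5-fold (0.508% of abundant rows higher, 0.0448% lower) or 2-fold (0.134% higher, 0.0149% lower).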

How the data were processed

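RNA of 5 libraries, 1 per condition, was sequenced after a stranded SMARTer preparation from total RNA, per the labels' protocols. The authors deposited 1 table per library with log2 values for 17048 gene symbols; rn6 is the build, and TopHat and edgeR are the tools, per the submitters' processing notes. Tool versions, counting program, annotation and strand use: not given in the sources used here. Raising 2 to each value and subtracting 1 gave the linear values. Low linear values came in equal steps, and the median of the lowest step (0.848 in the control, 0.986 to 1.10 in the others) was taken as 1 read; 87.1% of values up to 2.5 reads in the control and 99.1% to 100% in the others lay within 0.2 read of a whole number. No count model was fitted, since there are no replicates. Differences are between deposited log2 values, and 95% intervals are exact (Clopper-Pearson) on approximate reads; the labels describe no molecular identifiers, so reads are not independent molecules. Where a symbol had several rows the highest mean was taken. Genes named were the members, the 2 highest and 2 lowest of each of 10 lists in hypoxia against control with a mean of at least 10 reads, and the 3 rows most like each member at least 1.5-fold different; others were named after their values were seen. The members and lists were chosen with earlier results of these data known. Python 3.11.15, numpy 2.4.6, pandas 2.3.3, scipy 1.17.1 and matplotlib 3.10.9 were used. Alternatives were other offsets (0.5 and 10), scalings, low values raised to 3 reads, a 1.5-fold threshold, summed rows, no filter on abundance and another hypoxic library.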

Additional observations from a re-analysis of the deposited data

How the results depend on the processing

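Ddit4, Mxi1 and Bhlhe40 were at least 2-fold above the control under every alternative tried, with ranges of 3.06 to 3.25, 2.43 to 2.64 and 2.49 to 2.77. Of the values of single genes under an alternative, 297 stayed inside their main counting interval and 7 moved out of it. The 297 include values that could not move. Each gene had a single row and far more than 3 reads in every library, so summed rows and raised low values returned the main value. Of the 7, 3 came with the same sum in each library (Ddit4 3.06, Sesn2 0.11 and Myc 0.02 in hypoxia against control) and 4 with a compound library in place of hypoxia (Sesn1 0.50 with In-Cl; Sesn3 0.83, 0.52 and 0.37). At 1.5-fold, 1 of the 8 genes, Sesn3, passed in In-Cl against hypoxia. Counts over all genes past the fold threshold moved with that threshold and with the filter. For hypoxia against control 141 became 521 at 1.5-fold and 1621 with no filter, and with the same sum in each library 105 were higher and 37 lower, against 126 and 15 as deposited. For In-Cl 4 became 95 and 1116, for DPN 8 became 20 and 1284, for E2 2 became 15 and 1225, and for In-Cl against DPN 10 became 37 and 1080, each at 1.5-fold and with no filter. The same-sum scaling of counts over all genes, of intervals and of library order was chosen after seeing the data, as were other offsets, raised low values and another hypoxic library for the counts over all genes. No paired analysis was possible because each condition has 1 library.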

Other observations

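Other lists linked to these genes went in several directions in hypoxia against control. Of 13 counted p53 genes, 0 were past 2-fold, a share near that of abundant rows (1.88% higher, 0.224% lower). By their intervals 9 lay below the control, where 39% of abundant rows did. The median of the 13 was -0.20, or -0.35 with the same sum in each library. Cdkn1a, the cell cycle inhibitor p21, was lowest at -0.95 [-1.02 to -0.89], and Gadd45a, a stress gene, was highest at 0.89 [0.74 to 1.04]. Phlda3 was at 0.17 [0.09 to 0.25] and the cyclin gene Ccng1 at -0.59 [-0.63 to -0.55]. Of 9 glucocorticoid-type genes, whose median was 0.48, 3 passed 2-fold upward, where 1.88% of abundant and 8.85% of detected rows did: Errfi1, a brake on EGF receptor signalling (2.45-fold, 133 reads against 65), the transcription factor Cebpd (2.33-fold) and Tsc22d3, also called GILZ (2.11-fold). Fkbp5, which belongs to the same list, was 1.63-fold lower, and Per1 was at 0.03 [-0.18 to 0.24].

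Bhlhe40 represses clock genes, and 15 clock genes and partners were counted, of which 9 lay above the control by their intervals and 2 below, against 28.7% and 39% of abundant rows. Dbp, a clock output factor, was 2.26-fold higher in hypoxia (log2 1.18), the only 1 past 2-fold. Of abundant rows 1.88% and of detected rows 8.85% were that much higher. Npas2, a partner of BMAL1, was at 0.80 [0.22 to 1.46] on 57 reads against 39. Id3, an inhibitor of helix-loop-helix factors, was lowest at -0.66 [-0.73 to -0.58], Id1 was at -0.38 [-0.54 to -0.22], and the median was 0.24, or 0.10 with the same sum in each library.

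Sesn3 was the member that differed most between the hypoxic libraries, and the rows most like it, read after its values were seen, were Srgap3 (root mean square difference 0.055 over 5 libraries), Btbd7 (0.069) and the amino acid transporter Slc7a2 (0.071). Against hypoxia Slc7a2 was at 0.80 after In-Cl, 0.32 after DPN and 0.26 after E2. In the ATF4 list 10 of 14 genes lay below hypoxia by their intervals after In-Cl, 9 after DPN and 3 after E2, where 29.2%, 17.4% and 17.9% of abundant rows did. These counts are as deposited and were not repeated with the same sum in each library. A row named Ddit4l2, which the gene table used here does not pair with Ddit4l, had 17 reads in the control and 7 to 11 in the hypoxic libraries.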
